A study of Mus musculus with 9 samples.

Results

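LXR and PPAR are nuclear receptors that sense lipids, and the genes they control move cholesterol and fatty acids into, through and out of macrophages. The genes described here are 10 of that system: the receptor genes Nr1h3 (LXR alpha), Nr1h2 (LXR beta), Pparg and Ppard, the cholesterol exporters Abca1 and Abcg1, the lipid carrier gene Apoe, the lipid transfer protein gene Pltp, the lipase gene Lpl and the lipid droplet gene Plin2. They were chosen by name, and every probe set that the array annotation gives to one of them alone was taken, which made 13 of the 22626 probe sets tested and covered 9 of the 10 genes. Nr1h2 had no such probe set and was not analysed here. The cells were RAW 264.7, a line of mouse macrophages, on 9 arrays: 3 from cells given lipopolysaccharide (LPS, the cell wall lipid of Gram-negative bacteria) at 100 ng/ml for 18 h, 3 labelled as constitutively overexpressing CstF-64, and 3 from untreated cells. CstF-64, the product of Cstf2, is a subunit of a complex that forms mRNA 3' ends. The sources used here do not give the promoter or construct behind the overexpression, or say whether the cells were a clone or a pool. Nor do they say whether the replicates were separate cultures, so the p-values reflect the spread of these samples alone, and that spread may be technical. No group controls for the construct, so an effect of CstF-64 and other differences between the cell populations cannot be told apart.

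In macrophages, LXR is bound and switched on by oxysterols, pairs with an RXR receptor on DNA, and raises the genes for ABCA1 and ABCG1, which hand cholesterol to lipoproteins outside the cell. PPAR receptors also pair with RXR, answer to fatty acids and their derivatives, and raise genes of lipid uptake, storage and burning. LPS signalling through Toll-like receptors is known to interfere with LXR target genes in macrophages.

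Values are the deposited intensities, whose trimmed means matched across arrays, and the number of arrays limits their precision. Medians per array were 42.75 to 49.3 after LPS and 51.1 to 54.2 on the other 6 arrays, and arrays of 1 group correlated at r = 0.965 to 0.989 across probe sets on the log2 scale. LPS array 1 and CstF-64 array 1 stood apart from the rest, with limma array weights of 0.252 and 0.473 against 0.829 to 1.86 for the other 7. Several results that rest on these arrays are given with and without them. Log2 changes are differences of log2(intensity + 13), a scale that shrinks the changes of dim probe sets, and adjusted p-values come from limma with the Benjamini-Hochberg adjustment over 22626 probe sets. "Rose", "fell" and "called" mean an adjusted p below 0.05. The highest value of the Bacillus control probe sets, 31.2, served as the limit of background. The label CstF-64 was not borne out by the transcript: for Cstf2, probe set 1419645_at read 317.9, 361.5 and 394.5 in the arrays labelled CstF-64, against 397.8, 363.1 and 372.2 in untreated cells (log2 change -0.08, 95% interval -0.36 to 0.20). The dimmer one, 1419644_at, averaged 87.6 ± 8.57 in the arrays labelled CstF-64 and 116 ± 17 in untreated cells. Its log2 change of -0.36 (-0.70 to -0.01) was not called (limma adjusted p = 0.763). Whether the probes lie inside the overexpressed sequence is not known. Of 9 macrophage markers, 8 were above the limit on all arrays of each group, Mrc1 being the exception, and their summed intensity was 18871 to 20814.2 after LPS, 14215.6 to 17841.5 in the arrays labelled CstF-64 and 13343.6 to 18093.4 in untreated cells. After LPS 4 of the 9 rose and 1 fell (6.67% and 10.4% of all genes). None was called in the arrays labelled CstF-64, where 0.105% of all genes rose and 0.169% fell. Adgre1 had the largest log2 change there, -1.15 (limma adjusted p = 0.0777), with means of 221 against 510.6 in untreated cells and 1687 after LPS. The part of these marker changes in the results below was not tested. The 10 LPS response markers all rose after LPS, with summed intensities of 22730.2 to 33371.3 after LPS, 508.2 to 1035.6 in the arrays labelled CstF-64 and 378.4 to 934.7 in untreated cells. Hepatocyte markers were above the limit on all 3 arrays of a group for none of 7 genes in any group, and of 4 adipocyte markers only Retn was, after LPS and in the arrays labelled CstF-64. Adipoq and Lep averaged 7.5 and 2.53 after LPS, 4.17 and 3.7 in the arrays labelled CstF-64 and 4.1 and 3.2 in untreated cells, below the limit throughout. In RNA from a whole culture, fewer cells of a type and less RNA per cell cannot be told apart.

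After LPS, the lipid droplet gene Plin2 and the cholesterol exporter gene Abca1 rose, and no probe set of the 10 genes fell. The lipid transfer gene Pltp fell in the arrays labelled CstF-64, where its called probe set was at 0.470 of the level in untreated cells, and no probe set rose there. Counted over the 13 probe sets, 2 rose after LPS (15.4%, against 5.93% of all probe sets) and 0 fell (10.7% of all probe sets fell). Of the 13, 1 fell in the arrays labelled CstF-64 (7.69%, against 0.146% of all probe sets) and 0 rose (0.102% of all). Set directly against each other, the LPS arrays were higher than the arrays labelled CstF-64 for 3 probe sets (23.1%, against 5.79% of all) and lower for 0 (9.43% of all). With 13 probe sets these shares rest on 1 to 3 calls each, and the genes were chosen with earlier results of these data known. The median log2 change of the 13 was 0.07 after LPS, against -0.04 over all probe sets, and 0.00 in the arrays labelled CstF-64, against 0.00 over all. The same 3 untreated arrays stand in both comparisons.

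**Figure D1:**
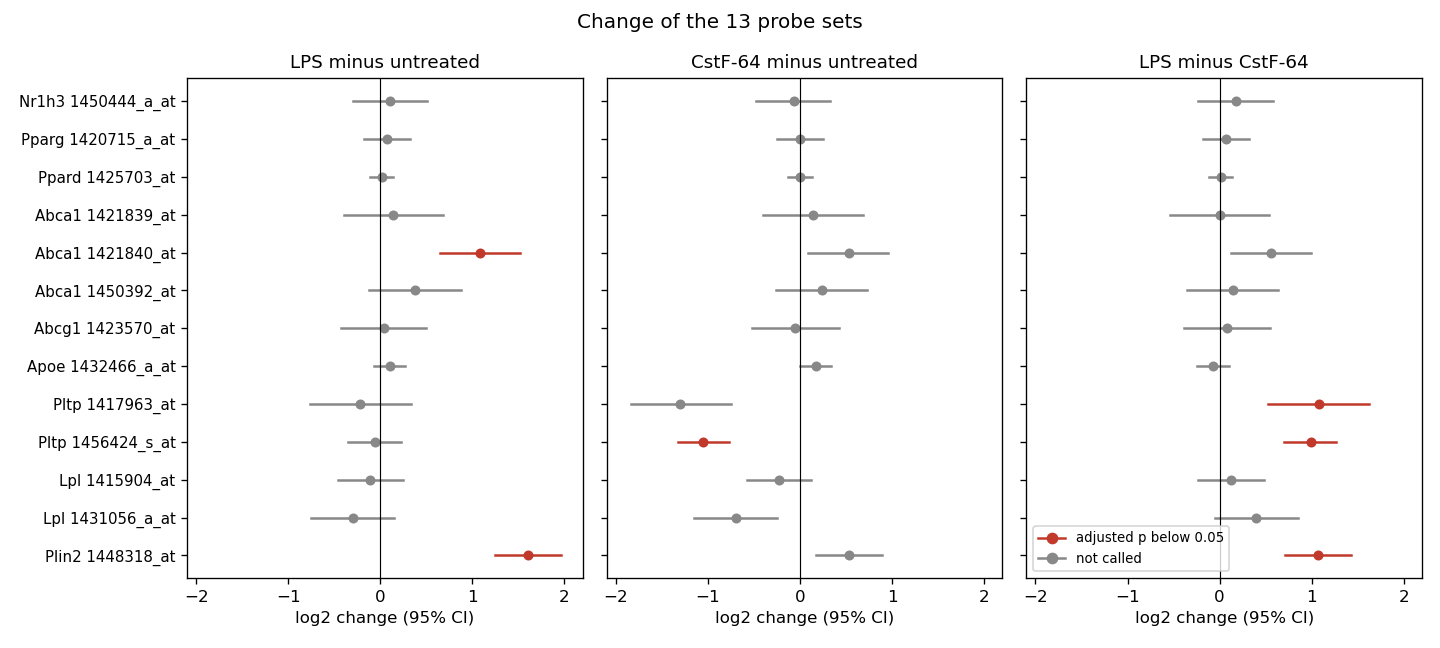
Log2 change with its 95% interval (limma, 3 arrays per group) for the 13 probe sets, in order of the genes' roles, with LPS minus untreated on the left, CstF-64 minus untreated in the middle and LPS minus CstF-64 on the right. Called changes are red: Abca1 1421840_at (1.08) and Plin2 (1.60) after LPS, Pltp 1456424_s_at (-1.05) in the arrays labelled CstF-64, and Plin2 and both Pltp probe sets between the 2.

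Among the receptors, Nr1h3 (chr2:91184061-91202829, GRCm38.p6, as for the genes below), which encodes the LXR form enriched in macrophages and liver, was close to the background limit. It read 43.2, 36.6 and 38.7 after LPS, 42.9, 33.5 and 25.4 in the arrays labelled CstF-64, and 33.8, 33.0 and 40.9 in untreated cells. The 3 groups overlapped, with 1 array, CstF-64 array 3, below the limit. Its log2 change was 0.10 after LPS (95% interval -0.30 to 0.51) and -0.07 in the arrays labelled CstF-64 (-0.48 to 0.33), and neither was called. Pparg (chr6:115360879-115490404), the receptor that drives fat cell formation and shapes alternatively activated macrophages, read 1.5 to 6.4 after LPS, 1.5 to 3.2 in the arrays labelled CstF-64 and 2.0 to 2.6 in untreated cells. Ppard (chr17:28232754-28301469), a receptor for fatty acids found in most tissues, read 1.0 to 1.8 after LPS, 1.1 to 1.3 in the arrays labelled CstF-64 and 1.1 to 1.3 in untreated cells. Both lay far below the limit on all 9 arrays, so no level or fold can be read for them. A single probe set stands for each of these receptors, and its low value does not show that the transcript was missing.

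**Figure D2:**
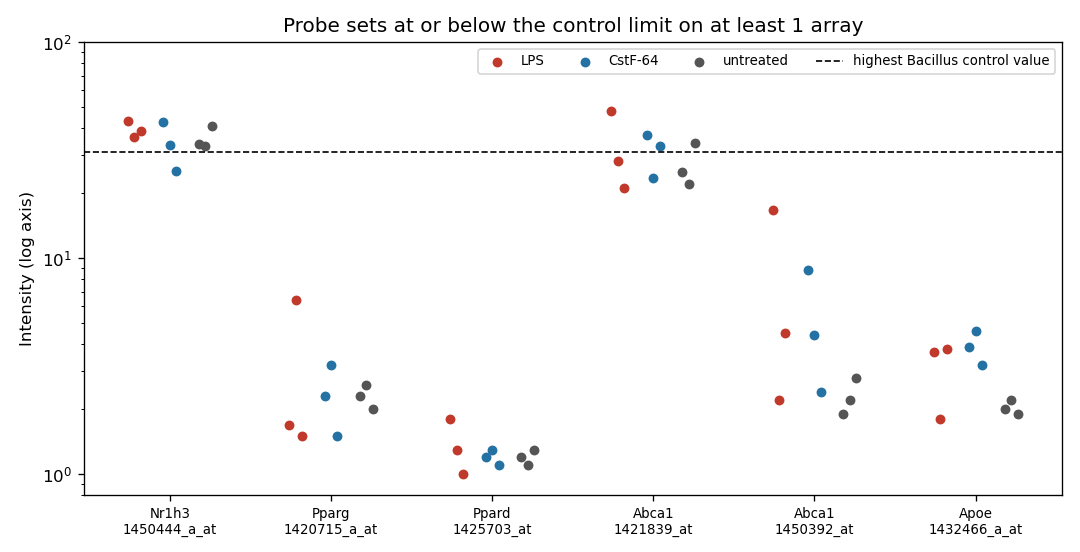
Intensity on a log axis of the 6 probe sets that were at or below the control limit on at least 1 array, 3 points per group, with LPS to the left, CstF-64 in the middle and untreated to the right within each probe set. The dashed line is the limit of 31.2: Nr1h3 lies around it, 1 Abca1 probe set straddles it, and Pparg, Ppard, Apoe and the other Abca1 probe set stay below it on all 9 arrays.

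Abca1 (chr4:53030789-53159988), the exporter that loads cholesterol onto lipid-poor apolipoproteins, rose after LPS by the 1 of its 3 probe sets that was above the limit on all arrays. That probe set, 1421840_at, read 131.9, 94.4 and 100.6 after LPS, 67.3, 77.5 and 63.4 in the arrays labelled CstF-64, and 32.4, 49.3 and 52.6 in untreated cells. All LPS arrays were above all arrays labelled CstF-64, and those above all untreated arrays. The mean was 109 ± 20.1 after LPS and 44.8 ± 10.8 in untreated cells (SD, n = 3 each), a ratio of 2.43 and a log2 change of 1.08 (SE 0.19, 95% interval 0.65 to 1.52, limma adjusted p = 0.00439). Without LPS array 1 it was 0.95 (limma adjusted p = 0.012). The mean in the arrays labelled CstF-64 was 69.4 ± 7.28, with a log2 change of 0.53 against untreated cells (0.09 to 0.96) that was not called (limma adjusted p = 0.634). The difference between the LPS arrays and the arrays labelled CstF-64, 0.56 (0.12 to 0.99), was not called either (limma adjusted p = 0.0875). It was called after quantile normalization, median centring or a filter on dim probe sets (limma adjusted p = 0.0307, 0.0266 and 0.0439). The other 15 of 18 alternatives did not call it, with limma adjusted p up to 0.23. Without LPS array 1 this difference was 0.43 (limma adjusted p = 0.185).

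The other Abca1 probe sets did not show the change. 1421839_at read 48.1, 28.1 and 21.1 after LPS, 37.4, 23.6 and 33.2 in the arrays labelled CstF-64, and 25.2, 22.1 and 34.3 in untreated cells, overlapping in all groups and above the limit on 4 of 9 arrays. 1450392_at stayed between 1.9 and 16.7 on all arrays, below the limit. In a test for unequal change among the probe sets of a gene, added after the values were seen (limma diffSplice, F test over 4956 genes), Abca1 had an adjusted p of 0.164 after LPS, where 5.59% of genes were called.

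Abcg1 (chr17:31057694-31117984), the exporter that passes cholesterol to larger lipoprotein particles, was well above the limit and was not called. It read 205.0, 299.8 and 383.7 after LPS, 260.4, 251.6 and 301.6 in the arrays labelled CstF-64, and 234.7, 324.8 and 287.6 in untreated cells. The LPS arrays spanned more than the other groups, and all groups overlapped. The log2 change was 0.04 after LPS (95% interval -0.43 to 0.50) and -0.05 in the arrays labelled CstF-64 (-0.52 to 0.42).

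Plin2 (chr4:86626910-86670217) encodes a coat protein of lipid droplets, and its transcript showed the largest change of the 13 probe sets after LPS. It read 2955.2, 2360.2 and 2811.9 after LPS, 1283.8, 1300.7 and 1239.8 in the arrays labelled CstF-64, and 692.8, 913.5 and 1077.5 in untreated cells. The 3 groups did not overlap, with the arrays labelled CstF-64 between the others and close together. After LPS the ratio of means was 3.03 and the log2 change 1.60 (SE 0.16, 95% interval 1.24 to 1.96, limma adjusted p = 0.000152). Without LPS array 1 it was 1.54 (limma adjusted p = 0.000875). For the arrays labelled CstF-64 the log2 change was 0.53 (0.17 to 0.89), which was not called (limma adjusted p = 0.481). The LPS arrays were higher than the arrays labelled CstF-64 by 1.07 (0.71 to 1.43, limma adjusted p = 0.00184).

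**Figure D3:**
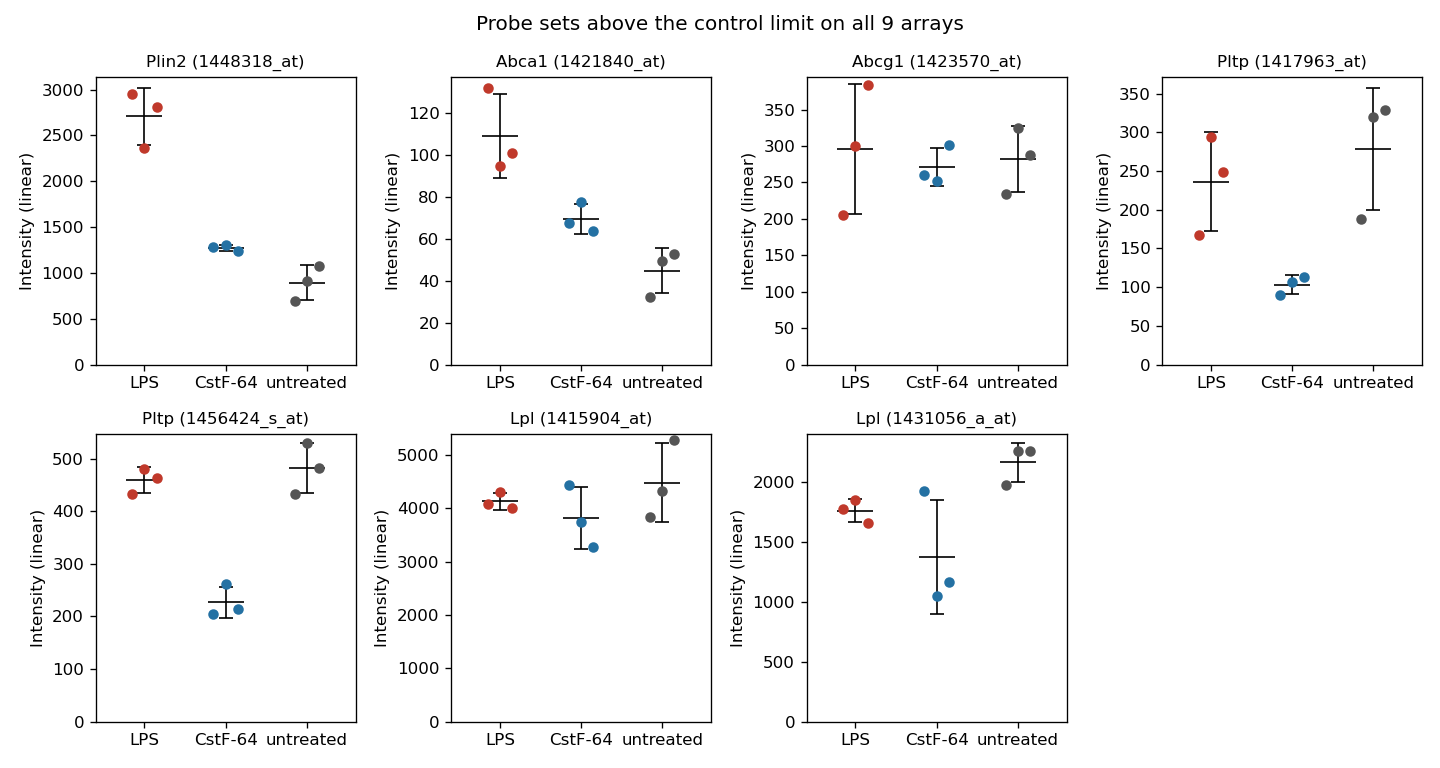
Intensity on a linear axis from 0 for the 7 probe sets above the control limit on all 9 arrays, with LPS, CstF-64 and untreated from left to right, points for arrays 1 to 3, and a bar for the mean with its SD (n = 3). The points of Plin2 and Abca1 step down from LPS over CstF-64 to untreated. CstF-64 against untreated was not called for either gene, nor was LPS against CstF-64 for Abca1. Both Pltp probe sets are lowest in the arrays labelled CstF-64, and Abcg1 overlaps in all groups.

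The promoters of the 2 genes that rose after LPS are shown because Abca1 is the textbook LXR target and Plin2 a PPAR target, from RefSeq (GRCm38.p6). LXR with RXR binds 2 copies of AGGTCA in a row with 4 bases between them (DR4, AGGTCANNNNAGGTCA), and PPAR with RXR binds them with 1 base between (DR1, AGGTCANAGGTCA). Both strands of 300-base windows, 250 before to 50 after a gene's start, were searched with at most 2 mismatches in a copy and 3 in all, a limit set with the known Abca1 site in mind. The E-box CACGTG, which reads the same on both strands, was searched without mismatches. Each sequence below gives the 250 bases before the start, on the minus strand, where the annotated span of each gene reaches into the window and so takes in further starts upstream, from chr4:53159896-53160145 for Abca1, with the E-box and the DR4 match in capitals, and from chr4:86670060-86670309 for Plin2, with 2 DR1 matches in capitals.
Abca1: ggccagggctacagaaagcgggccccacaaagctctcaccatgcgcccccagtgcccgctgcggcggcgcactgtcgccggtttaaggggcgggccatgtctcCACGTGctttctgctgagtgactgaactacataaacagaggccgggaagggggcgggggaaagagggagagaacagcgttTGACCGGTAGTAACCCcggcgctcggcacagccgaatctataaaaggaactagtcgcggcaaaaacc
Plin2: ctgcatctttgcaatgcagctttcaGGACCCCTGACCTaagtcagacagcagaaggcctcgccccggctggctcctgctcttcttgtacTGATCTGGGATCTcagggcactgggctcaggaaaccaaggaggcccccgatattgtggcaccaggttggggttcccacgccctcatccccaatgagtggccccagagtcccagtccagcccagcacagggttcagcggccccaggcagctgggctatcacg

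The DR4 match of Abca1 runs from -67 to -52 and reads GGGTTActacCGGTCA on the strand opposite to the gene, with 3 mismatches, and its E-box starts at -147. The DR1 matches of Plin2 start at -225, with 2 mismatches (AGGTCAgGGGTCC on the opposite strand), and at -161, with 3, and a CACGTG spans its start. At these limits 18.8% of all 32851 windows held a DR4 match, 21.5% a DR1 match and 7.15% a CACGTG, so a match by itself is common. Windows were at hand for 8 of the 10 genes. No DR4 match lay in the windows of Nr1h3, Nr1h2, Pparg, Ppard, Apoe, Pltp or Plin2, and besides Plin2 only a window of Apoe held a DR1 match. Lpl and Abcg1 had no window.

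Pltp (chr2:164839518-164857708), which moves phospholipid between lipoproteins and is a target of LXR, was the member that stood out in the arrays labelled CstF-64. Its brighter probe set, 1456424_s_at, read 203.9, 260.9 and 214.9 in the arrays labelled CstF-64, against 433.6, 529.3 and 483.0 in untreated cells. Every array labelled CstF-64 was far below every untreated array, with a ratio of means of 0.470 and a log2 change of -1.05 (SE 0.13, 95% interval -1.33 to -0.77, limma adjusted p = 0.0100). The other probe set, 1417963_at, read 89.5, 106.0 and 113.4 in the arrays labelled CstF-64, against 187.9, 319.7 and 328.8 in untreated cells. The groups did not overlap there either, and the log2 change of -1.30 (-1.84 to -0.75) missed the threshold (limma adjusted p = 0.0961). It was called with a filter on dim probe sets (0.0384), with array weights (0.012), with the replicate block (0.0219) and without untreated array 1 (-1.55, 0.042). In the other 14 of 18 alternatives it was not called, with limma adjusted p up to 0.393. Without CstF-64 array 1 the log2 change of 1417963_at was -1.21 (limma adjusted p = 0.145). Without CstF-64 array 1 the log2 change of 1456424_s_at was -0.98 (limma adjusted p = 0.0197). Its call was lost when CstF-64 array 3, untreated array 2 or untreated array 3 was left out, with limma adjusted p of 0.0784, 0.0765 and 0.0581, while the log2 change stayed between -1.15 and -0.94 in all 18 alternatives.

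After LPS, Pltp was near its untreated level. 1456424_s_at read 433.1, 480.7 and 463.9 after LPS and 1417963_at 167.4, 293.3 and 248.1, both overlapping untreated cells. The log2 changes against untreated cells were -0.06 (95% interval -0.35 to 0.22) and -0.22 (-0.77 to 0.33). Set against the arrays labelled CstF-64, the LPS arrays were higher by 0.99 (0.70 to 1.27, limma adjusted p = 0.000748) and 1.08 (0.53 to 1.62, limma adjusted p = 0.0159). Without LPS array 2 or LPS array 3 the call of 1417963_at was lost (limma adjusted p = 0.0521 and 0.0566). The test for unequal change between the Pltp probe sets did not call either comparison with untreated cells (diffSplice adjusted p = 0.885 after LPS and 1 in the arrays labelled CstF-64, where 0.0404% of genes were called).

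Lpl (chr8:68880555-68906932) encodes lipoprotein lipase, which frees fatty acids from circulating triglyceride and is made in quantity by macrophages, and Apoe (chr7:19696244-19701310) encodes the apolipoprotein that carries cholesterol out of many tissue macrophages. The brighter probe set of Lpl, 1415904_at, read 4082.4, 4307.4 and 4006.8 after LPS, 4431.8, 3749.7 and 3269.6 in the arrays labelled CstF-64, and 3838.1, 4323.3 and 5289.6 in untreated cells. All groups overlapped, with log2 changes of -0.11 after LPS (95% interval -0.46 to 0.25) and -0.23 in the arrays labelled CstF-64 (-0.58 to 0.12). After quantile normalization the first of these was -0.39 and just called (limma adjusted p = 0.0499).

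The dimmer Lpl probe set, 1431056_a_at, read 1768.5, 1845.2 and 1655.8 after LPS, 1919.2, 1043.4 and 1159.3 in the arrays labelled CstF-64, and 1972.9, 2255.1 and 2255.0 in untreated cells. Both other groups lay below all untreated arrays, CstF-64 array 1 by a small margin and CstF-64 arrays 2 and 3 by a wide one. The log2 change of -0.70 in the arrays labelled CstF-64 (-1.15 to -0.25) was not called (limma adjusted p = 0.428). Without CstF-64 array 1 it was -0.96 and called (limma adjusted p = 0.0163), and with array weights it was -0.88 and called (0.0293). The difference of 0.40 between the LPS arrays and the arrays labelled CstF-64 (-0.05 to 0.85) was not called, and without CstF-64 array 1 it was 0.67 and called (limma adjusted p = 0.00784). The test for unequal change between the Lpl probe sets called neither comparison (adjusted p = 0.827 after LPS). Apoe read 3.7, 1.8 and 3.8 after LPS, 3.9, 4.6 and 3.2 in the arrays labelled CstF-64, and 2.0, 2.2 and 1.9 in untreated cells. These values are below the limit on all 9 arrays and carry no level or fold.

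Over the 9 arrays, the genes measured by 1 probe set whose log2 values tracked Plin2 most closely were Rac2, Cxcl2 and Fcgr1, with Pearson r of 0.990, 0.980 and 0.978. For Abca1 1421840_at they were Cd53 (0.988), Cd300lf (0.960) and Zbtb21 (0.955). For Apoe they were Ucn2 (0.954), Mnx1 (0.907) and Foxb1 (0.886), a likeness to values below the limit. These are descriptions, the highest of 7431 genes, and the 9 points are 3 groups of 3, so that r follows the group levels.

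Beyond the 10 genes, 96 other genes of the pathway were listed in 5 groups, of which 79 were measured, each read by its brightest probe set. After LPS 9 of the 79 rose (11.4%, against 6.67% of all genes) and 15 fell (19.0%, against 10.4% of all genes). Of the 79, 1 fell in the arrays labelled CstF-64 (1.27%, against 0.169% of all genes) and 0 rose (0.105% of all genes). The median log2 change of the 79 was -0.05 after LPS, against -0.03 over all genes, and -0.04 in the arrays labelled CstF-64, against 0.01. With single arrays left out, 18 to 25 of the 79 were called after LPS, with 18 without LPS array 1, untreated array 2 or untreated array 3. The lists were chosen with earlier results of these data known, so these shares describe the listed genes and do not test the pathway. Both the lists and all genes include genes below the limit, and they were not matched for signal.

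Of 15 receptor partners and coregulators, 4 fell after LPS and none rose, where 10.4% of all genes fell and 6.67% rose. They were Rxrb, an RXR partner receptor (log2 -0.94, limma adjusted p = 0.0345), Nrip1, a corepressor (-0.83), Med1, a Mediator subunit that nuclear receptors contact (-0.63), and Tbl1xr1, a component of corepressor complexes (-0.64). Rxrb read 121.9, 230.7 and 249.2 after LPS, against 323.0, 355.2 and 478.5 in untreated cells, with LPS array 1 the lowest. These calls were near the threshold: without LPS array 1 those of Rxrb, Med1 and Tbl1xr1 were lost (limma adjusted p = 0.0636, 0.0618 and 0.0533), and without untreated array 1 all 4 were (0.0508 to 0.0819). Rxrb, Med1 and Tbl1xr1 were also lost without untreated array 2 or 3 and after median centring (0.0728 to 0.146). Med1 was lost without LPS array 3 (0.0868), Rxrb without CstF-64 array 3 (0.0522), and Tbl1xr1 without LPS array 2 or any of the arrays labelled CstF-64 (0.0537 to 0.0716). After quantile normalization Med1 alone was called (the others at 0.0538 to 0.0724). In a fit on only the LPS and untreated arrays Med1, Rxrb and Tbl1xr1 were lost (0.0514, 0.0557 and 0.089), and without the intensity trend Tbl1xr1 was (0.0555). No gene of this list was called in the arrays labelled CstF-64, where 0.105% of all genes rose and 0.169% fell. Nrip1 read 56.4, 57.7 and 63.5 there, against 91.0, 84.2 and 83.2 in untreated cells (limma adjusted p = 0.717), with Tbl1x next (0.967).

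Of 13 other LXR target genes, 4 fell after LPS and none rose, where 10.4% of all genes fell and 6.67% rose. The list's median log2 change was -0.36, against -0.03 over all genes. For comparison, the median over all probe sets tested that were above the limit on at least 3 arrays was -0.106 after LPS. Of the 13 genes of the list, 9 were above the limit on all arrays. Those that fell were Fasn, the fatty acid synthase (log2 -1.51, limma adjusted p = 0.0026), Elovl5, a fatty acid elongase (-1.41), and Scd1, a desaturase (-1.32), with the phosphodiesterase gene Smpdl3a (-1.19). Fasn read 111.5, 231.0 and 188.6 after LPS, against 452.7, 647.5 and 450.5 in untreated cells, with no overlap. Fasn, Elovl5 and Scd1 were called under all 18 alternatives, while Smpdl3a was lost without LPS array 1 (-0.76, limma adjusted p = 0.0562) as well as without LPS array 3, CstF-64 array 2 or 3, or any of the untreated arrays (0.0539 to 0.128), and after quantile normalization (0.0599), median centring (0.0781) or in the fit on only the LPS and untreated arrays (0.0604). None of the list was called in the arrays labelled CstF-64, where 0.105% of all genes rose and 0.169% fell. Smpdl3a read 253.3, 156.9 and 164.6 there, against 302.0, 427.4 and 392.1 in untreated cells (limma adjusted p = 0.631, and 0.0474 with array weights), and Elovl5 followed with an adjusted p of 0.879.

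Of 14 other PPAR target genes, 3 rose and 3 fell after LPS (6.67% and 10.4% of all genes). In the arrays labelled CstF-64, 1 fell (0.169% of all genes). Cd36, the scavenger receptor that takes up oxidised lipoproteins and fatty acids, was called in both, in opposite directions. It read 1278.1, 1121.4 and 1035.6 after LPS, 10.4, 0.7 and 7.3 in the arrays labelled CstF-64, and 117.8, 202.2 and 183.6 in untreated cells. The groups were far apart, with all arrays labelled CstF-64 below the limit. After LPS the log2 change was 2.71 (SE 0.24, limma adjusted p = 6.56e-05), and in the arrays labelled CstF-64 Cd36 was at least 5.24-fold lower than in untreated cells, the geometric mean of the untreated arrays against the limit of 31.2 (limma adjusted p = 0.000612). Both calls held under all 18 alternatives. LPS arrays were at least 36.6-fold higher than arrays labelled CstF-64 (limma adjusted p = 9.51e-07).

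The fatty acid binding protein genes Fabp4 (log2 1.84) and Fabp3 (1.67) also rose after LPS. Fabp4 read 235.9, 134.4 and 159.6 after LPS, 229.4, 66.2 and 101.4 in the arrays labelled CstF-64, and 37.6, 34.7 and 43.7 in untreated cells. The arrays labelled CstF-64 were all above untreated cells but wide apart, and were not called (log2 1.33, limma adjusted p = 0.364). Without CstF-64 array 1 this log2 change was 0.89 (limma adjusted p = 0.259). Without LPS array 1 the log2 change of Fabp4 after LPS was 1.63 (limma adjusted p = 0.0258). Those that fell after LPS were Cpt1a, which admits fatty acids to mitochondria for burning (log2 -1.12), and, named after their values were seen to complete the count, Acadm, an enzyme of fatty acid oxidation (-0.52, and -0.37 and not called after median centring), and Angptl4, a secreted inhibitor of lipoprotein lipase. Angptl4 read 25.2, 6.8 and 9.1 after LPS, against 66.5, 68.3 and 47.1 in untreated cells, at least 1.92-fold lower.

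Of 18 lipid droplet and neutral lipid genes, 2 rose after LPS and none fell, where 6.67% of all genes rose and 10.4% fell. Hilpda, a lipid droplet protein that inhibits triglyceride breakdown, read 1641.6, 621.8 and 801.0 after LPS, 131.9, 379.6 and 390.9 in the arrays labelled CstF-64, and 110.8, 116.7 and 170.8 in untreated cells. LPS array 1 was the highest, and the log2 change was 2.73 (SE 0.43, limma adjusted p = 0.00235). Without that array it was 2.33 (limma adjusted p = 0.00755). Abhd5, which activates triglyceride breakdown, rose as well (log2 0.97, limma adjusted p = 0.0345), a call lost without LPS array 1, LPS array 3, untreated array 2 or untreated array 3 (0.102, 0.0753, 0.115 and 0.115). No gene of the list was called in the arrays labelled CstF-64, where 0.105% of all genes rose and 0.169% fell. Hilpda (log2 0.99, limma adjusted p = 0.769) and Cidec, below the limit in all groups (0.888), were first by p. Without CstF-64 array 1 the log2 change of Hilpda in the arrays labelled CstF-64 was 1.47 (limma adjusted p = 0.165).

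Of 19 genes of cholesterol transport, lipoprotein receptors and oxysterol enzymes, 4 rose and 4 fell after LPS (6.67% and 10.4% of all genes). Msr1, the class A scavenger receptor, read 3067.5, 2231.3 and 2394.3 after LPS, against 431.2, 649.8 and 500.8 in untreated cells (log2 2.26, limma adjusted p = 0.00249). Npc2 (log2 0.69) and, named after its value was seen, Npc1 (0.64), which together release cholesterol from lysosomes, also rose, but Npc1 was no longer called when any single array but CstF-64 array 1 was left out (limma adjusted p = 0.05 to 0.14), or in the fit on only the LPS and untreated arrays (0.0638). Olr1 was called higher but stayed below the limit in every array, at 17.6 to 21.0 after LPS and 0.5 to 4.0 in untreated cells. Cyp27a1, which makes an oxysterol that activates LXR, fell to 70.6, 92.1 and 92.2 after LPS, against 184.9, 191.0 and 172.8 in untreated cells (log2 -1.01, limma adjusted p = 0.00146). The other falls, named after their values were seen, were Stard4, a sterol carrier (-0.93), Scarb1, a receptor for high-density lipoprotein (-0.73), and Osbp, an oxysterol-binding protein (-0.61, and -0.45 and not called after median centring). No gene of the list was called in the arrays labelled CstF-64, where 0.105% of all genes rose and 0.169% fell. Cyp27a1 read 106.9, 121.7 and 137.4 there (log2 -0.54, limma adjusted p = 0.368), followed by Scarb1 (-0.39, 0.641).

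**Figure D4:**
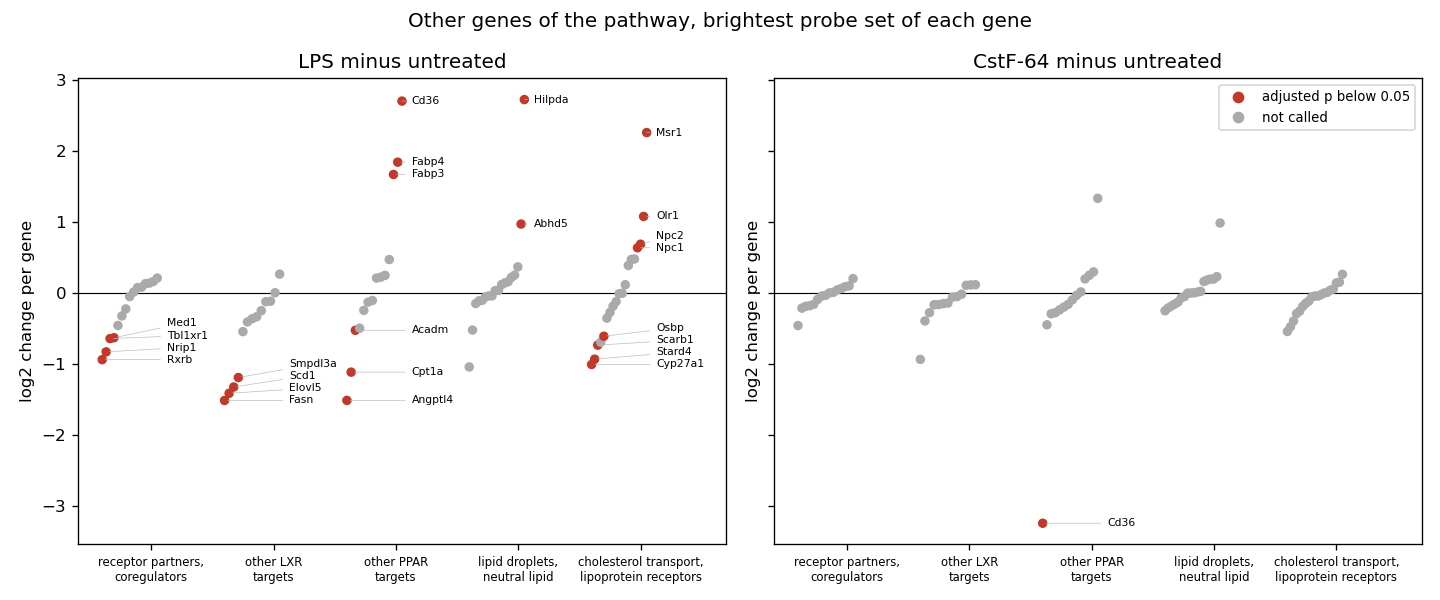
Log2 change of each of the other pathway genes, brightest probe set per gene, ordered by size within 5 lists, for LPS minus untreated (left) and CstF-64 minus untreated (right), with called genes in red and named. After LPS 24 of 79 genes were called in both directions, and in the arrays labelled CstF-64 only Cd36 was. Points that rest on values below the limit are not exact changes. Among the called genes these are Cd36 in the arrays labelled CstF-64, and Angptl4 and Olr1 after LPS. Fabp3 and Nrip1 were below the limit on some arrays, and so were genes that were not called.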

How the data were processed

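The authors deposited linear intensity values, with 22690 rows of which 64 were controls. The sources used here do not give software, background correction or normalization. Trimmed means (2% from each end) were 150.05 to 150.06, so values were kept as deposited and transformed to log2(intensity + 13), 13 being 0.25 of the median of all values, 50.2, rounded. Groups follow the samples' labels. A linear model with group means was run over the 9 arrays in limma 3.58.1 under R 4.3.3 (lmFit and eBayes with trend), two-sided. It was also run on simulated data in which all arrays had the same spread, so that run does not bear on arrays that stand apart. Probe sets took their gene from the platform annotation, with symbols updated to GRCm38.p6. The brightest probe set stood for each gene outside the 10.

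The members and lists were chosen with earlier results of these data known. The rule for other genes named up to 4 called genes by adjusted p, or at least 2 genes, in each list and comparison with untreated cells, and for the 3 members with the smallest p after LPS, by their brightest probe set, the 3 genes of closest pattern. Background was the highest value of 27 Bacillus control probe sets. Alternatives were other scalings, pseudocounts, filters and fits, and single arrays left out.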

Additional observations from a re-analysis of the deposited data

How the results depend on the processing

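After LPS, Plin2 and Abca1 1421840_at were called under all 18 alternatives, with limma adjusted p up to 0.00136 and 0.0159, and log2 changes from 1.41 to 1.76 and from 0.73 to 1.24. No called probe set of the 10 genes changed sign. In the arrays labelled CstF-64 the count of called probe sets of the 10 genes, 1, was 2 with the filter on dim probe sets, 3 with array weights and 2 with the replicate block, and 0 to 2 without single arrays: 0 without CstF-64 array 3, untreated array 2 or untreated array 3, and 2 without CstF-64 array 1 or untreated array 1. Of the other pathway genes 2 were called there with array weights, against 1. Over all probe sets, the count for CstF-64 against untreated, 56, was 230 with array weights, 32 with the replicate block and 18 to 110 without single arrays. That for LPS against CstF-64, 3443, was 5258 with array weights and 2093 to 3299 without single arrays, and that for LPS against untreated, 3755, was 2399 to 4118 without single arrays. The cause of these shifts was not tested. Same-numbered arrays of different groups deviated together at r = -0.06 to 0.16 and were closest to their own number in 9 of 18 cases. With 3 candidate arrays in each case, this does not settle whether the numbers mark pairs. The main fit did not treat them as pairs, and the replicate block did. The replicate block called Pltp 1417963_at (limma adjusted p = 0.0219) and lost Smpdl3a and Npc1 after LPS (0.0517 and 0.0588), and it changed no other call of the 13 probe sets or of the other genes named. Median centring moved the median of all probe sets after LPS from -0.038 to 0.117. Signal over background limits what can be read for Nr1h3, Pparg, Ppard, Apoe and 2 Abca1 probe sets.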
